A study of Mus musculus with 15 samples.

Results

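The protein subunits of the cytosolic ribosome were examined in the cecum of mice whose gut microbes had been depleted with antibiotics. The genes were taken by symbol: every gene whose name is Rpl or Rps followed directly by a digit, together with Rplp0, Rplp1, Rplp2 and Rpsa, leaving out symbols that contain -ps, which mark pseudogenes, and the Rps6k kinases. Some of the symbols kept are nevertheless annotated as processed pseudogenes, Rps4l and Rpl37rt among the genes tested below. Of the 45804 genes used, 92 symbols met this rule, and 81 of them had an FPKM (the reads of a gene divided by the length of its transcripts and by the depth of the library) of at least 0.5 in at least 7 of the 15 mice. These 81 are 41 subunits of the large subunit, 29 of the small subunit, 3 proteins of the P stalk, and 8 genes that are paralogs, retrogene copies or, for Rps19bp1, a binding partner that only carries the name of a ribosomal protein. The same filter was passed by 11983 genes in all.

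RNA came from the emptied, frozen cecum of C57BL/6 wild-type mice labelled as 20 weeks old. For 30 days, 7 mice (AIMD) received ampicillin, vancomycin, neomycin, metronidazole and amphotericin B by repeated daily gavage, and 8 mice (vehicle) received water the same way. Mice of both groups ate normal chow and were housed several to a cage, and neither the cage nor the time of sacrifice of a mouse is in its label. The whole cecal wall was used, so that fewer cells of a type and less RNA per cell cannot be told apart. The epithelial markers Epcam, Krt20 and Car1 were high in every mouse (Epcam at 1371 FPKM or more).

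A ribosome is built from ribosomal RNA and one copy of most of these proteins, in a small subunit that reads the messenger RNA and a large subunit that joins amino acids. Because a subunit needs its proteins in equal numbers, their genes are known as a set with common regulation. Their messenger RNAs usually begin with a short pyrimidine run, the 5′ terminal oligopyrimidine or TOP element, through which mTORC1 and the RNA-binding protein Larp1 control their translation. Ribosomal protein genes are also known for their many processed pseudogenes, which repeat the coding sequence elsewhere in the genome. In the gut, ribosome production is greatest in the dividing cells of the crypt.

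Letters of a pyrimidine run lay near the RefSeq start site of several of these genes, before, at or after its first base. The 30 bases around the RefSeq start site (GRCm38.p6; 15 before and 15 from the start on) are shown for 4 genes that fell in AIMD mice and for Rpl4, which rose, with the searched letters CTTTCC or CTTTTC in capitals.
Rps27, chr3:90213634-90213663, minus strand: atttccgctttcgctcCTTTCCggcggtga
Rpl27a, chr7:109519180-109519209, plus strand: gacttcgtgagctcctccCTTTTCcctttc
Rps12, chr10:23787195-23787224, minus strand: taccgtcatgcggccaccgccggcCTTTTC
Rpl38, chr11:114668565-114668594, plus strand: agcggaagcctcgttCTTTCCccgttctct
Rpl4, chr9:64173372-64173401, plus strand: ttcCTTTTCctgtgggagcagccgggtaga
One of these runs lay within 30 bases before to 50 after the start, on the sense strand, in 27 of the 62 filtered genes that had a RefSeq promoter (43.5%). Over all 27025 genes of the table with a promoter, 7.41% had it. The letters were there in 6 of 15 genes that fell, 2 of 4 that rose and 19 of 43 that did not pass the test. The ETS-type letters CCGGAAG, searched on both strands from 250 bases before to 50 after the start, were in 24 of the 62 genes (38.7%) and in 9.93% of all genes. They were in 9 of the 15 genes that fell, 1 of the 4 that rose and 14 of the 43 others. The search windows of the pyrimidine and ETS letters overlap each other, and a match describes letters only.

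Most of the coding sequence of these genes is not their own, which bears on every level reported here. Each coding sequence in GENCODE M21 was cut into all windows of 50 bases, about the length of a read, and a window was counted as shared where it also occurred in a transcript of another gene. All coding windows were shared in 26 of the 79 filtered genes that have an annotated coding sequence. These 26 genes had a mean FPKM between 0.485 and 46.3 with a median of 2.35, and none reached 100. The 13 genes with under 50% of coding windows shared had 27.2 to 525 FPKM with a median of 146. Over 86 symbols with a coding sequence, Spearman's correlation of mean FPKM with the shared percentage was −0.61, a description over genes that share libraries and pseudogene families.

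**Figure D1:**
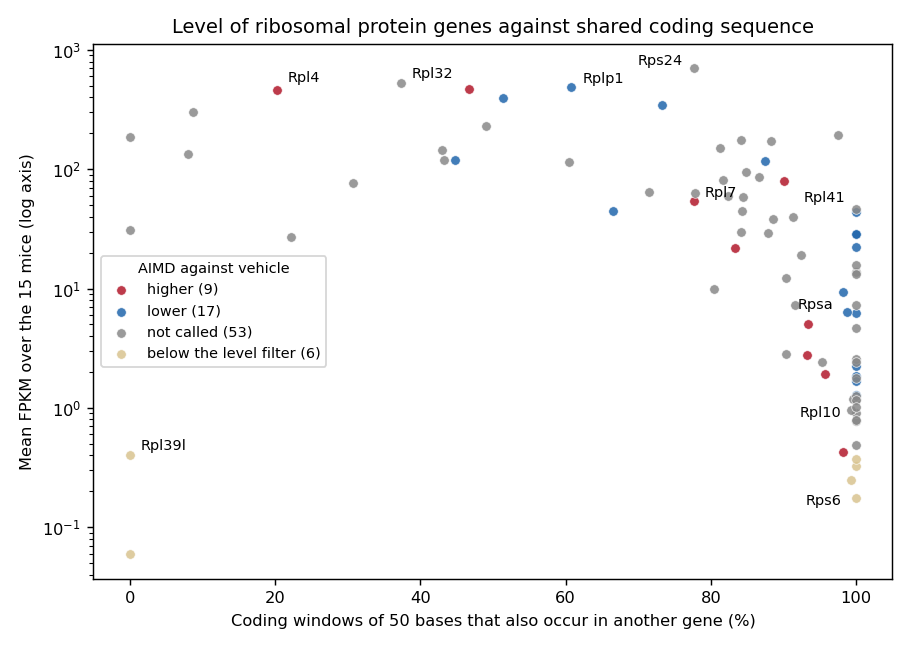
Mean FPKM over the 15 mice (log axis) against the percentage of each gene's coding windows of 50 bases that also occur in a transcript of another gene, for ribosomal protein genes with a coding sequence and a level above 0. Colours give the call in AIMD against vehicle mice. The genes above 100 FPKM lie left of 100%, and the genes with all windows shared lie between 0.485 and 46.3 FPKM or, below the level filter, lower.

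How reads that match several places were counted is not given in the sources used here. A gene with all windows shared is therefore reported with an uncertain level, and a low FPKM of such a gene cannot be read as low expression. Rps6, a small-subunit protein and the classic target of the S6 kinases, was one of them. Rps6 (chromosome 4, 86854660 to 86857412, minus strand) had 0.0757 to 0.328 FPKM in AIMD mice (median 0.144) and 0 to 0.289 in vehicle mice (median 0.239), from 44 reads over all mice. All of its coding windows occur in other genes, 14 annotated pseudogenes among them. It missed the level filter, as did Rpl23a and Rpl24, other proteins of the ribosome, with 46 and 36 reads over all mice and with 100% and 99.3% of coding windows shared.

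Rpl10l, Rpl3l, Rpl39l, Rps3a2, Rps3a3, Rps12l1 and Rps12l2 missed the filter too. Rpl3l is known from striated muscle, and Rpl10l and Rpl39l from the testis. Rpl3l and Rpl39l share no coding window, and their mean FPKM over all mice was 0.0590 and 0.401. Rpl10l shares 12.4% of its windows and was listed at 0 in every mouse. The filter was close for a few members. Rpl36 reached 0.5 FPKM in exactly 7 mice, 5 AIMD and 2 vehicle. It thus passed mainly through the AIMD group, where it was called higher. Rpl28 and Rps13 reached 0.5 FPKM in 8 mice, while outside the filter Rpl39l and Rpl23a did so in 4 mice.

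The levels of the 81 genes ranged from 0.429 to 702 FPKM around a median of 28.9, and the 10 highest made up 59.6% of their summed mean. The highest were Rps24 (466.6 to 836 in AIMD mice, 379 to 1174 in vehicle mice), Rpl32 (346 to 642 and 313 to 883) and Rplp1. Rps24 and Rpl32 overlapped between the groups, with log2 fold changes of −0.31 and −0.27 that did not pass the test. Without vehicle replicate 8, Rps24 was called lower, at −0.45 (limma adjusted p = 0.0370). The lowest were Rpl36, Rpl28 and Rpl27, at 0.489 to 0.992 FPKM in AIMD mice for Rpl27. On this per-length scale the highest recorded level was 1636 times the lowest. Of the 81 genes, 69 reached 0.5 FPKM in all 15 mice, and 8 did so in fewer than 7 mice of one of the groups.

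Depletion of the microbes went with changes in both directions. Of the 81 genes, 18 fell in AIMD mice (22.2%), where 16.7% of all genes tested were called lower, and 9 rose (11.1%), where 19.4% of all genes tested were called higher. The other 54 did not pass the test (limma, adjusted p of 0.05 over 11983 genes). The median log2 fold change, AIMD minus vehicle, was −0.24 over the 81 genes and 0.01 over all genes, and 57 of the 81 lay below 0. Without the paralogs and partners, 16 of 73 fell and 9 rose.

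**Figure D2:**
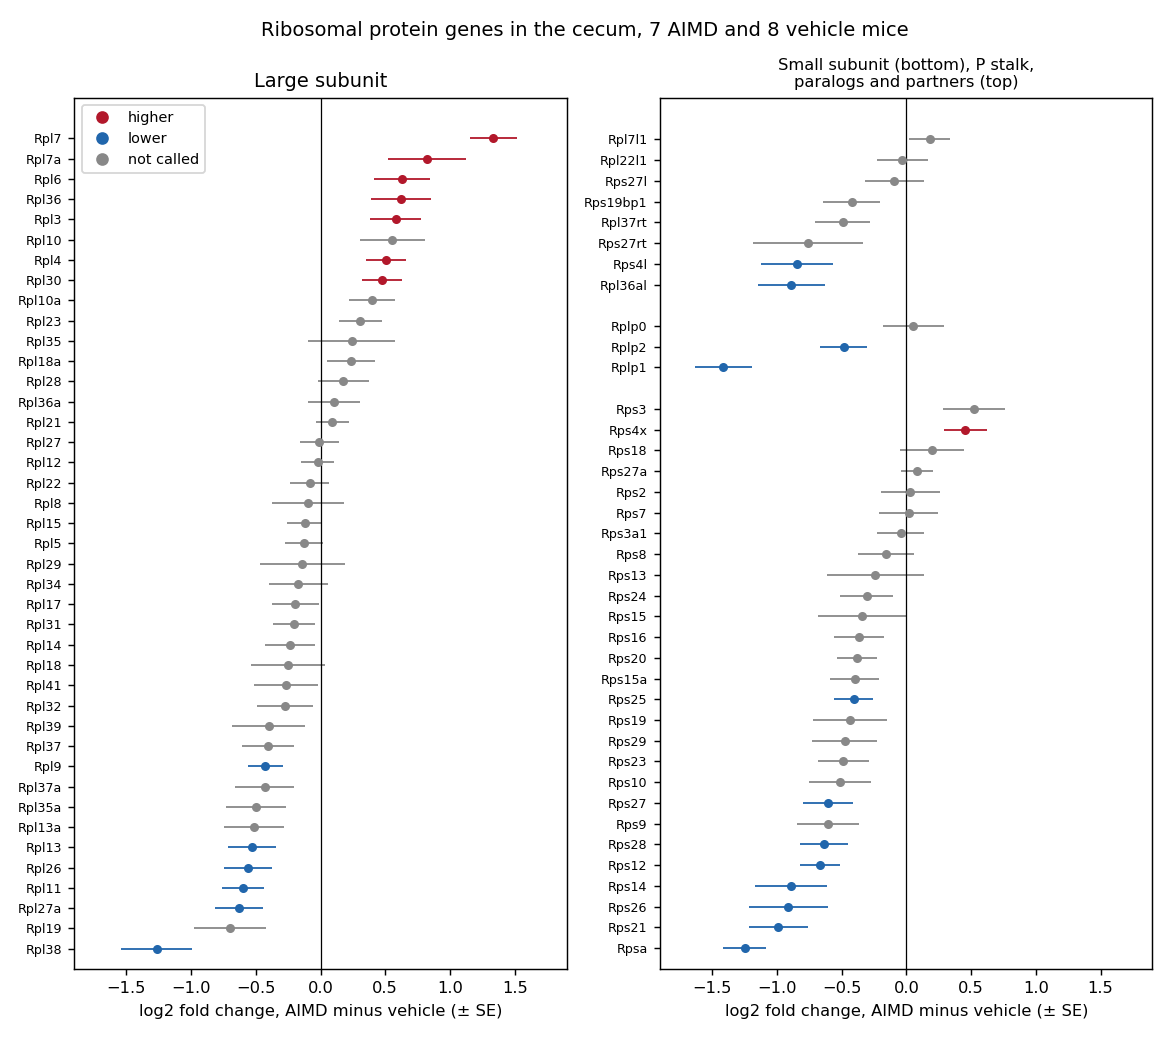
log2 fold change, AIMD minus vehicle, with its standard error from limma, for 79 of the 81 genes in 7 AIMD and 8 vehicle mice, ordered by size within the large subunit (left) and within the small subunit, P stalk and paralogs (right). Colours mark genes called higher (8 shown), called lower (18) and not called (53 shown). Rpl7 stands at the top and Rplp1, Rpl38 and Rpsa at the bottom.

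The direction depends on the scaling. Scaled to the same summed FPKM in every mouse, 15 members were called higher and 5 lower, where 37.3% and 5.87% of all genes were called, and the median of the members was 0.09 while that of all genes was 0.30. The 5 were Rplp1, Rpl38, Rpsa, Rps21 and Rpl36al, and the other 13 falls described here lost their call under this scaling. Relative to all genes, the median of the members was lower by a similar amount under both scalings, at −0.25 and −0.21. The counts also moved when single mice were left out. From 2 (without AIMD replicate 2) to 9 genes were then called higher, and from 12 to 28 (without vehicle replicate 8) lower. In these fits, 16.1% to 20.1% of all genes were called higher and 13.4% to 18.7% lower. Without AIMD replicate 2, 17.9% of all genes were called higher.

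The subunits were counted separately. In the small subunit 8 of 29 genes fell (27.6%), 2 rose (6.90%) and the median log2 fold change was −0.38, beside the 16.7% lower and 19.4% higher of all genes tested. In the large subunit 6 of 41 fell (14.6%), 7 rose (17.1%) and the median was −0.13, shares that are near those of all genes. No test of the difference between the subunits was made. The genes with all coding windows shared gave 9 falls (34.6%) and 0 rises among 26 with limma (1 rise at an unadjusted p under 0.05, and 0 with the exact rank-sum test or voom), and those with at least 1 window of their own gave 8 falls (15.1%) and 9 rises (17.0%) among 53, again near the shares of all genes. Among the 13 genes with under 50% of windows shared, 1 fell (7.69%), 2 rose (15.4%) and the median was −0.10. Over 79 genes, Spearman's correlation of the log2 fold change with the shared percentage was −0.12.

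The gene that rose most was Rpl7, a large-subunit protein (chromosome 1, 16101295 to 16104662, minus strand). Its FPKM was 52.0 to 109 in AIMD mice (median 86.0) and 23.0 to 47.0 in vehicle mice (median 30.3). Every AIMD mouse was above every vehicle mouse. The log2 fold change was 1.34 (SE 0.18, limma adjusted p = 4.26e-05). The reads behind it were 3219 in the median AIMD mouse and 624.5 in the median vehicle mouse, and 77.6% of its coding windows are shared, with 520 windows of its main transcript its own. Of 13 annotated pseudogenes that share windows with Rpl7, Gm12174 shares the most and had a mean of 0.0747 FPKM. As the counting of reads that match several places is not given, this value does not tell where such reads were counted.

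The other rises were smaller and overlapped between the groups. Rpl4, a large-subunit protein with 20.2% of coding windows shared, had 436 to 644 FPKM in AIMD mice (median 552) and 276 to 527 in vehicle mice (median 388). Of the AIMD mice 5 were above all vehicle mice, and the log2 fold change was 0.51 (SE 0.15, limma adjusted p = 0.0169). Rps4x, the X-linked small-subunit protein, had 77.3 to 113 FPKM in AIMD mice and 40.5 to 102 in vehicle mice, and rose by 0.46 (limma adjusted p = 0.0379, and up to 0.0776 without 1 mouse, with the call lost for 8 of the 15). Rpl30 rose by 0.47, with 11.96 to 23.96 FPKM in vehicle mice and 21.96 to 35.6 in AIMD mice, with 4 AIMD mice above all vehicle mice, and lost its call without AIMD replicate 2 (limma adjusted p = 0.0559).

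The remaining rises were of genes at low levels. Rpl7a, Rpl6 and Rpl3, proteins of the large subunit, have 93.2% to 95.7% of their coding windows shared. Rpl7a had 2.43 to 11.9 FPKM in AIMD mice (median 5.97) and 1.15 to 7.14 in vehicle mice (median 3.46), a log2 fold change of 0.82 (SE 0.30). Rpl6 had 1.38 to 6.13 (median 3.22) and 1.16 to 2.80 (median 1.99), a log2 fold change of 0.63 (SE 0.22). Rpl3, which takes part in forming the peptidyl transferase centre, had 1.39 to 4.44 (median 2.20) and 0.733 to 2.13 (median 1.45), a log2 fold change of 0.58 (SE 0.20). In each of these genes 2 to 5 AIMD mice were above all vehicle mice and the groups overlapped. Rpl36 was called at 0.62 (SE 0.23) from only 29 reads over all 15 mice, with 0.130 to 1.07 FPKM in AIMD mice and 0 to 0.674 in vehicle mice. With single mice left out, the call was lost for 10 of the 15 mice in Rpl36 and in Rpl7a (limma adjusted p up to 0.0948 and 0.0957). In Rpl6 it was lost without AIMD replicate 1, 2 or 5 or vehicle replicate 6 (up to 0.0729), and in Rpl3 without AIMD replicate 2 or 5 or vehicle replicate 6 (up to 0.0665). Without the level filter, and with the rank-sum test, none of Rpl36, Rpl7a, Rpl6 and Rpl3 was called. The call of Rpl36 was also lost with quantile normalization, a pseudocount of 0.1, the replicate block and voom.

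Among the falls, the P stalk held the largest. The stalk is the flexible arm of the large subunit that recruits the translation factors that hydrolyse GTP. Rplp0 is its base, and dimers of the acidic proteins Rplp1 and Rplp2 sit on it. Rplp1 (chromosome 9, 61913284 to 61914542, minus strand) had 153 to 447 FPKM in AIMD mice (median 242) and 542 to 1005 in vehicle mice (median 649.7). Every AIMD mouse was below every vehicle mouse, and the log2 fold change was −1.41 (SE 0.22, limma adjusted p = 0.000161).

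The dimer partner Rplp2 fell less. It had 26.3 to 51.4 FPKM in AIMD mice (median 33.4) and 33.7 to 73.1 in vehicle mice (median 49.4), with 4 AIMD mice below all vehicle mice. Its log2 fold change was −0.48 (SE 0.18, limma adjusted p = 0.0423), and the call was lost for 11 of the 15 mice when 1 was left out (adjusted p up to 0.0915). The base Rplp0 had 81.6 to 183 FPKM in AIMD mice and 65.4 to 212 in vehicle mice, and its medians were both 96.2. The groups overlapped fully and the log2 fold change was 0.05 (SE 0.24). Rpl12, which sits beside the stalk base, had 1.34 to 2.27 FPKM in AIMD mice and 1.33 to 2.38 in vehicle mice, with a log2 fold change of −0.02 (SE 0.13). All coding windows of Rpl12 are shared, and 60.4% to 66.6% of those of the 3 stalk genes are.

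**Figure D3:**
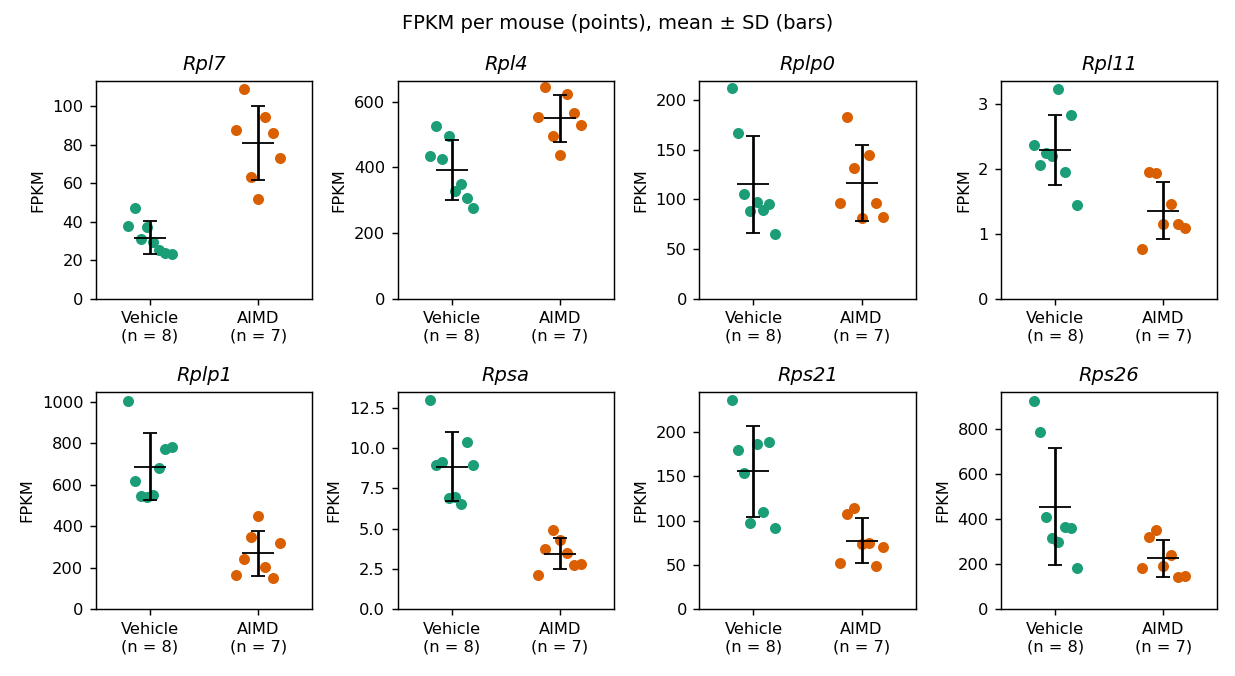
FPKM of 8 ribosomal protein genes in each of 8 vehicle and 7 AIMD mice (points), with the group mean and SD (bars); each panel has its own axis from 0. The groups do not overlap for Rpl7, which is higher in AIMD mice, or for Rplp1 and Rpsa, which are lower, and they overlap for Rpl4, Rplp0, Rps21, Rps26 and Rpl11.

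In the small subunit, Rpsa fell furthest. Rpsa is a ribosomal protein that is also known as the laminin receptor. It lies on chromosome 9 (120127689 to 120132369, plus strand). Its FPKM was 2.15 to 4.90 in AIMD mice (median 3.48) and 6.53 to 12.9 in vehicle mice (median 8.95). Every AIMD mouse was below every vehicle mouse, with a log2 fold change of −1.25 (SE 0.17, limma adjusted p = 4.29e-05). Of its coding windows 98.8% are shared, with 27 annotated pseudogenes among the genes that hold them, and it had 70 reads in the median AIMD mouse and 126 in the median vehicle mouse. With Rpl7 and Rplp1 it made 3 of 81 genes whose groups did not overlap, against 8.56% of all genes tested.

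Rps21, Rps26 and Rps14 were abundant small-subunit genes that fell. Rps21 had 49.3 to 114 FPKM in AIMD mice (median 73.1) and 91.7 to 236 in vehicle mice (median 167). Of the AIMD mice 5 were below all vehicle mice, and the log2 fold change was −0.99 (SE 0.23, limma adjusted p = 0.00344). Rps26 had 143 to 349.5 FPKM (median 193) against 185 to 924 (median 362), a log2 fold change of −0.91 (SE 0.30, limma adjusted p = 0.0271). The vehicle mice spread most for Rps26, and 5 of them were above all AIMD mice. Its call was lost without AIMD replicate 1, 6 or 7 (limma adjusted p up to 0.0617), without the level filter and with the rank-sum test. Rps14 had 173 to 421 FPKM (median 211) against 271 to 761 (median 549.7), a log2 fold change of −0.89 (SE 0.28, limma adjusted p = 0.0195). In Rps14 too, 5 vehicle mice were above all AIMD mice, and the rank-sum test did not call it. Scaled to the same summed FPKM, neither Rps26 nor Rps14 was called (limma adjusted p = 0.124 and 0.0724).

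The other small-subunit falls were Rps12 at −0.67, Rps28 at −0.64, Rps27 at −0.60 and Rps25 at −0.41. The call of Rps25 was lost for 11 of the 15 mice when 1 was left out (limma adjusted p up to 0.0830). It was also lost without the level filter, with the rank-sum test and with voom. Rps12, Rps28 and Rps27 have all coding windows shared, and Rps25 has 98.2%. Trappc4, which shares sequence with Rps25, had a mean of 124 FPKM and fell by 0.76 (limma adjusted p = 0.00420). Rps12 had 3.52 to 6.56 FPKM in AIMD mice and 4.88 to 9.36 in vehicle mice, with 7 vehicle mice above all AIMD mice. Rps28 had 23.8 to 49.3 and 31.7 to 80.2, with 5 vehicle mice above all AIMD mice. Rps3, a small-subunit protein with 8.05% of coding windows shared, did not pass the test, with a log2 fold change of 0.53 (SE 0.24). It was called higher when scaled to the same summed FPKM (limma adjusted p = 0.00535), after quantile normalization, with the clock-gene axis as a covariate and with the replicate block (0.41, limma adjusted p = 0.0458). This gene was chosen after its values were seen.

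In the large subunit, Rpl38 had the lowest fold change. Rpl38 is known from mice in which its loss changes the axial skeleton. Its FPKM was 0.211 to 1.12 in AIMD mice (median 0.665) and 1.00 to 5.63 in vehicle mice (median 1.81), with 7 vehicle mice above all AIMD mice. The log2 fold change was −1.26 (SE 0.27, limma adjusted p = 0.00207) from 112 reads over all mice, and all its coding windows are shared. The 2 highest vehicle mice, at 5.63 and 4.64, were replicates 7 and 8.

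Rpl5 and Rpl11 form a particle with the smallest ribosomal RNA and, when they are in excess, bind Mdm2, the regulator of p53. Rpl11 had 0.764 to 1.95 FPKM in AIMD mice (median 1.16) and 1.44 to 3.23 in vehicle mice (median 2.23). Of the vehicle mice 7 were above all AIMD mice, and the log2 fold change was −0.60 (SE 0.16, limma adjusted p = 0.00861). Rpl5 had 5.75 to 8.28 FPKM and 5.48 to 11.9, overlapping groups and a log2 fold change of −0.13 (SE 0.15). Both genes have all coding windows shared. Gm15500, which shares sequence with Rpl5, had a mean of 2.34 FPKM and rose by 1.79 (limma adjusted p = 1.63e-05). Gm10288, which shares sequence with Rpl11, had a mean of 1.72 FPKM and did not pass, at −0.74 (limma adjusted p = 0.110). Rpl27a, Rpl26, Rpl13 and Rpl9 were the other large-subunit genes that fell, with log2 fold changes of −0.63, −0.56, −0.53 and −0.43. The call was lost without AIMD replicate 1 or 6 for Rpl26 (limma adjusted p up to 0.0591), without AIMD replicate 1, 5 or 6 for Rpl9 (up to 0.0529), and for 8 of the 15 mice for Rpl13 (up to 0.0749).

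Rpl10 has served as a reference gene for quantitative PCR. It had 0.351 to 2.07 FPKM in AIMD mice (median 1.57) and 0.283 to 1.52 in vehicle mice (median 0.768). Of the AIMD mice 4 were above all vehicle mice, but the log2 fold change of 0.55 (SE 0.25) did not pass the test (limma adjusted p = 0.0945). It did without AIMD replicate 4 (0.75, limma adjusted p = 0.0120) and when scaled to the same summed FPKM (limma adjusted p = 0.0191). All coding windows of Rpl10 are shared with other genes, 14 annotated pseudogenes among them, and 48 reads stood behind it in the median AIMD mouse and 18 in the median vehicle mouse. Its copy Rpl10-ps3 had nearly the same mean level, 1.13 FPKM against 1.19 for Rpl10.

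Several ribosomal proteins have a paralog, and how far the pair can be told apart depends on the sequence. The first 60 coding bases are shown for the Rps27 group and for Rpl36a with Rpl36al (GENCODE M21), with capitals where a base differs from the first gene of its pair.
Rps27: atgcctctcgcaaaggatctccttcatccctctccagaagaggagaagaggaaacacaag
Rps27rt: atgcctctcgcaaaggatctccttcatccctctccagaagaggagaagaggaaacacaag
Rps27l: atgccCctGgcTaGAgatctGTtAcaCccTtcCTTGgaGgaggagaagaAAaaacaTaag
Rpl36a: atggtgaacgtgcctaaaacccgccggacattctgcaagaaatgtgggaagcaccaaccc
Rpl36al: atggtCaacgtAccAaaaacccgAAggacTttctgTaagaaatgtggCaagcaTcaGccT
Rps27 and its retrogene copy Rps27rt are identical over all 255 coding bases, while Rps27l differs from Rps27 at 61 of them (76.1% identity). Rpl36al differs from Rpl36a at 39 of 321 bases (87.9% identity).

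Rps27l stood far above Rps27. Rps27l, a paralog known as a p53 target, had 168 to 270 FPKM in AIMD mice (median 209.6) and 91.9 to 340 in vehicle mice (median 258). Its groups overlapped and the log2 fold change was −0.09 (SE 0.23). Rps27 itself had 0.639 to 1.31 FPKM in AIMD mice (median 0.806) and 0.586 to 2.41 in vehicle mice (median 1.88), with 6 vehicle mice above all AIMD mice. It fell by 0.60 on the log2 scale (SE 0.19, limma adjusted p = 0.0213), and its copy Rps27rt, at −0.76 (SE 0.42), did not pass. Without vehicle replicate 8, Rps27rt was called lower, at −1.13 (limma adjusted p = 0.00290). Whether the low level of Rps27 is that of the gene or of reads lost to the identical copy was not tested.

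Rpl36al had 11.9 to 29.1 FPKM in AIMD mice (median 17.8) and 14.9 to 58.4 in vehicle mice (median 35.1), with 5 vehicle mice above all AIMD mice, and fell by 0.89 (SE 0.26, limma adjusted p = 0.0128). Its partner Rpl36a, encoded on the X chromosome, had 0.506 to 1.71 FPKM and 0.351 to 1.63, and a log2 fold change of 0.10 (SE 0.20). Rpl36al and Rpl36a both have all coding windows shared. The copy Rpl36a-ps2 had a mean of 6.38 FPKM against 0.914 for Rpl36a, and fell by 1.29 (limma adjusted p = 0.00845). Rps4l, an annotated processed pseudogene of chromosome 6, had 0.509 to 1.66 FPKM in AIMD mice and 0.342 to 4.16 in vehicle mice and fell by 0.85 (SE 0.28). Its parent Rps4x rose. The difference between partners was not tested.

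The other pairs did not pass the test in either partner, apart from Rpl7 and Rpl3. Rpl22 had 63.0 to 95.5 FPKM in AIMD mice and 47.3 to 93.7 in vehicle mice, while Rpl22l1 had medians of 59.6 and 59.3, with log2 fold changes of −0.08 (SE 0.15) and −0.03 (SE 0.20). Rpl7l1, with 22.3% of its coding windows shared, had 22.9 to 40.8 FPKM in AIMD mice and 17.7 to 37.1 in vehicle mice. Its log2 fold change of 0.18 (SE 0.16) stands beside that of 1.34 for Rpl7. Rpl39 was at −0.40 (SE 0.28), Rps19 at −0.43 (SE 0.29), and the nucleolar partner Rps19bp1, which regulates the deacetylase Sirt1, at −0.42 (SE 0.22). Without vehicle replicate 8, Rps19bp1 was called lower (−0.54, limma adjusted p = 0.0366).

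Ribosomal protein genes outside the naming rule were looked at as well. Gnb2l1, which encodes the small-subunit scaffold Rack1, had 106 to 178 FPKM in AIMD mice and 88.5 to 236 in vehicle mice, with a log2 fold change of −0.31 (SE 0.19) that did not pass. Fau, which encodes a ribosomal protein fused to a ubiquitin-like protein, was at 0.18 (SE 0.17) and did not pass.

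The 81 genes also differed between mice of the same group. For each mouse, the deviation of each of the 81 genes from the vehicle mean was taken on the log2 scale, and the median over the genes was used. It was −0.54 to 0.15 in AIMD mice (median −0.30) and −0.49 to 0.55 in vehicle mice (median 0.06), so that the groups overlapped. The highest was vehicle replicate 1, and the lowest were AIMD replicates 6 and 1 and vehicle replicate 8. AIMD replicates 2 and 3 were above 0, at 0.15 and 0.08, while the other 5 AIMD mice were at −0.28 or below. The 81 genes took 1.23% to 1.96% of all FPKM in AIMD mice and 0.970% to 1.99% in vehicle mice.

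**Figure D4:**
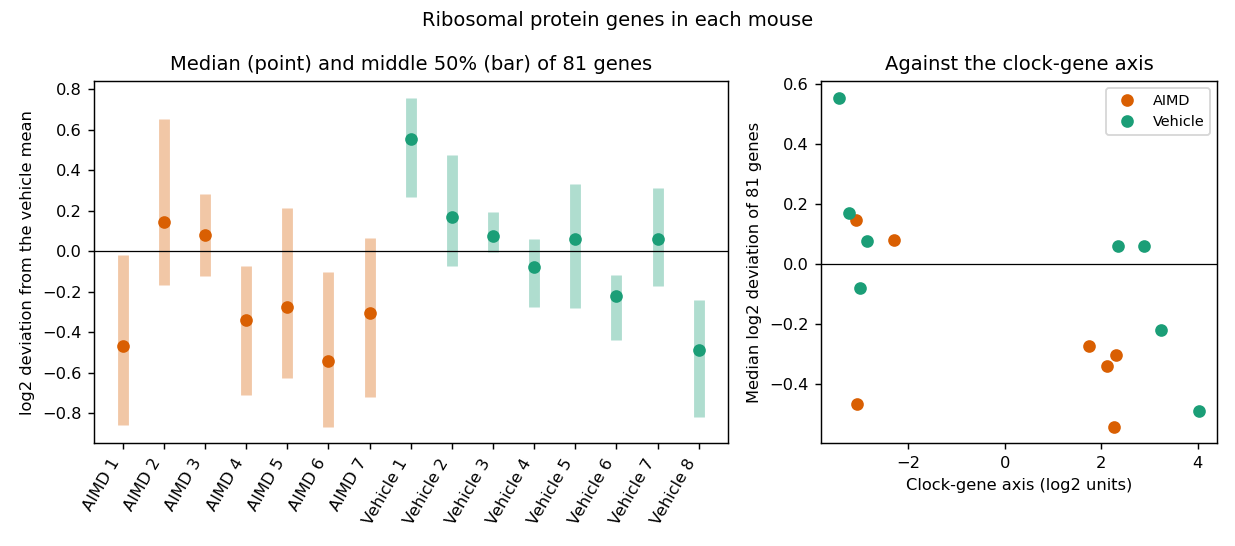
Left, log2 deviation of the 81 ribosomal protein genes from the vehicle mean in each mouse, as median (point) and middle 50% of genes (bar). Right, the same median against the clock-gene axis, with AIMD and vehicle mice in different colours. Medians run from −0.54 to 0.15 in AIMD mice and from −0.49 to 0.55 in vehicle mice, and both groups split into 2 sides of the clock-gene axis.

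Other measures differed between the mice too, and their correlation with these medians was not computed. Clock genes divided each group in 2 on the first principal component of 12 clock genes (centred within the groups), with 3 and 4 AIMD mice and 4 and 4 vehicle mice. The median deviation was −0.47 to 0.15 on the negative side and −0.54 to −0.28 on the positive side in AIMD mice, and −0.08 to 0.55 and −0.49 to 0.06 in vehicle mice. With the axis as a covariate, 10 members were called higher and 23 lower, where 22.6% and 20.0% of all genes were called. Vehicle replicate 8 had a summed FPKM of 10 smooth muscle genes of 3525, the other vehicle mice 623 to 1623 and the AIMD mice 248 to 897. The summed FPKM of 10 epithelial genes was 22359 in that mouse, 24167 to 30852 in the other vehicle mice and 25414 to 35830 in AIMD mice. Most of that sum was Car1 (16675 to 25654 FPKM in vehicle mice, 20959 to 29683 in AIMD mice). No gene of either list was at 0 in any mouse. With limma, 2 of the epithelial genes were higher and 1 lower, where 19.4% and 16.7% of all genes tested were. Of the 10 smooth muscle genes, 3 fell with limma (30%), beside the same 16.7%. The number that rose was 0 with limma, and also 0 at an unadjusted p under 0.05, with the rank-sum test and with voom. Without vehicle replicate 8, 6 members were called higher and 28 lower, with 20.1% and 18.7% of all genes called and a median of −0.33.

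The leukocyte list of 14 genes summed to 85.1 to 325 FPKM in AIMD mice and 93.7 to 197 in vehicle mice, with 2 of 13 tested genes higher and 3 lower. The 14 proliferation genes summed to 106 to 155 and 78.6 to 169, with 2 higher and 1 lower, and Olfm4 of the 8 crypt base genes was at 0 in 14 mice. Crypt base genes summed to 11.5 to 22.9 FPKM in AIMD mice and 16.8 to 23.0 in vehicle mice, with 1 of 4 tested genes higher and 1 lower. These counts stand beside 19.4% higher and 16.7% lower of all genes tested. Mitochondrial reads made up 4.28% to 10.9% of reads in AIMD mice and 6.92% to 26.2% in vehicle mice. The part of cell composition, clock phase, mitochondrial share and depth in the changes of the ribosomal protein genes was not tested beyond the fits named here.

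Depth differed between the mice. Whole reads (within 0.02 of a read, or more for large counts) were recovered for 97.9% of genes. At the annotated exon length, 68.2% of genes came out whole. The other recovered genes were scaled by the first multiplier that made their reads whole, so their wholeness is no check. The recovered reads summed to 8679663 to 18108531 in AIMD mice and 4372400 to 14405902 in vehicle mice. Among the 81 genes, the fewest reads stood behind Rpl36, with 29 over all mice, and the most behind Rpl4, with 113002.

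The rest of the translation machinery was compared in the same fit. Of 42 tested translation factors and other TOP genes, 11 were higher (26.2%) and 2 lower (4.76%) in AIMD mice, with a median log2 fold change of 0.18. Of all genes tested, 19.4% were higher and 16.7% lower. Eef1a1, the elongation factor that brings aminoacyl-tRNA to the ribosome, had 144 to 433 FPKM in AIMD mice (median 284) and 84.3 to 222 in vehicle mice (median 129) and rose by 1.06 (SE 0.22, limma adjusted p = 0.00162). Of the AIMD mice 5 were above all vehicle mice. Eif2s1, the alpha subunit of the initiation factor that carries the first tRNA, rose by 0.76 (SE 0.18), and Pabpc1, the poly-A binding protein, by 0.75 (SE 0.19). The 2 that fell were Eif2s3x, the gamma subunit of the same factor as Eif2s1, at −0.67 (SE 0.18), and the initiation factor Eif3a at −0.59 (SE 0.21).

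**Figure D5:**
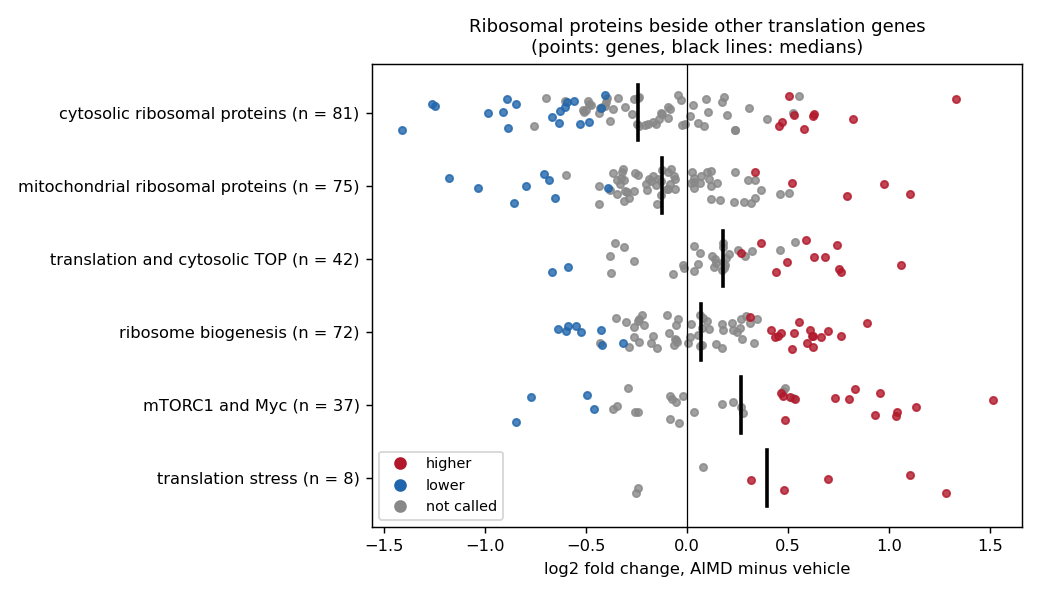
log2 fold change, AIMD minus vehicle, of every tested gene of 6 lists (points, coloured by call), with the median of each list as a black line. The median is −0.24 for 81 cytosolic and −0.12 for 75 mitochondrial ribosomal proteins, and 0.18, 0.07, 0.27 and 0.40 for the lists of translation factors, ribosome biogenesis, mTORC1 and Myc, and translation stress.

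Ribosome biogenesis factors process ribosomal RNA and assemble the subunits in the nucleolus. Of 72 tested, 17 were higher (23.6%) and 8 lower (11.1%), beside 19.4% and 16.7% of all genes, with a median of 0.07. Lsg1, a GTPase of the last cytoplasmic steps of the large subunit, had 1.15 to 2.18 FPKM in AIMD mice (median 1.58) and 0.343 to 1.11 in vehicle mice (median 0.651), and every AIMD mouse was above every vehicle mouse. Its log2 fold change was 0.89 (SE 0.16, limma adjusted p = 0.000413). Wdr43, of the early small-subunit complex, rose by 0.76 (SE 0.14), and Gnl2, a nucleolar GTPase, by 0.70 (SE 0.16). Dkc1, the pseudouridine synthase of box H/ACA particles, fell by 0.64 on the log2 scale, Nop16 by 0.60 and Rrp12 by 0.59.

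Genes of mTORC1 and of the Myc network, which act on ribosome production, gave 14 higher (37.8%) and 4 lower (10.8%) of 37 tested, beside 19.4% and 16.7% of all genes, and a median of 0.27. Myc had 3.95 to 7.38 FPKM in AIMD mice (median 5.18) and 1.49 to 4.69 in vehicle mice (median 2.76), with 4 AIMD mice above all vehicle mice, and rose by 0.73 (SE 0.19, limma adjusted p = 0.00704). The repressors of translation initiation Eif4ebp2 and Eif4ebp3 rose by 1.52 (SE 0.21) and 1.04 (SE 0.31), and Mxd1, which opposes Myc, by 1.13 (SE 0.24). Eif4ebp2 had 5.18 to 12.9 FPKM in AIMD mice and 1.74 to 5.38 in vehicle mice. The members that fell included Lamtor2 and Lamtor4, of the lysosomal anchor of mTORC1, at −0.85 (SE 0.23) and −0.78 (SE 0.23), and Deptor, which binds and inhibits mTOR, at −0.49 (SE 0.14). The TOP regulator Larp1 had 5.16 to 7.77 FPKM and 4.80 to 8.55, overlapping groups and a log2 fold change of −0.09 (SE 0.14).

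The ribosomal proteins of the mitochondrion, a separate ribosome encoded by other nuclear genes, gave 5 higher (6.67%) and 8 lower (10.7%) of 75 tested, both below the 19.4% and 16.7% of all genes, and a median of −0.12. Of the 8 tested genes of the translation stress list, 5 were higher with limma (62.5%) and the median was 0.40. The number lower was 0 with limma, and also 0 at an unadjusted p under 0.05, with the rank-sum test and with voom. No test between these lists and the cytosolic ribosomal proteins was made.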

How the data were processed

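Poly-A selected, stranded libraries of 7 AIMD and 8 vehicle ceca were sequenced as single reads of 50 bases. Per the submitters' processing notes and the study's methods, STAR, featureCounts, DESeq2, GRCm38 and GENCODE annotation were used, and the authors deposited FPKM per gene symbol and mouse. Of 45808 rows, 4 with a repeated symbol were left out. Groups and replicate numbers came from the labels. The study's own test had time of sacrifice as a factor beside treatment. No label gives that time, and the main fit here leaves it out.

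Here a median-of-ratios size factor per mouse was taken out, and log2(FPKM + 0.5) was fitted over the 11983 genes that reached 0.5 FPKM in 7 or more mice with limma 3.58.1 (R 4.3.3; lmFit and eBayes with trend), two-sided, with Benjamini-Hochberg adjustment over all of them and a threshold of 0.05. The size factors were 1.0101 to 1.0104, so that taking them out changed the deposited FPKM almost equally in every mouse. The library size behind the deposited FPKM was not the read total. In vehicle replicate 5 it was 5162136, for 6486304 recovered reads. The added 0.5 shrinks the fold changes of low genes. Whole reads were recovered from the FPKM of each gene for 97.9% of 24279 genes above 0, which gave the depth. The annotated exon length gave them for 68.2%, and a searched multiplier for the other recovered genes. Each label names 1 mouse.

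Positions and coding sequences are those of GENCODE M21 (GRCm38), and start sites those of RefSeq (GRCm38.p6). Other steps used Python with pandas and scipy. The main limma fit was also run on simulated FPKM, and the other steps were not. The members and the lists were chosen with earlier results of these data known. The genes named are the 6 largest rises and the 6 largest falls, the stalk, Rpl5, Rpl11, Rpsa, Rps6, Rpl10 and Rpl3, paralogs with their partners, the 3 highest and 3 lowest levels, members without overlap, and the leading genes of 3 lists. A few members are counted in all totals but have no values given here. The remaining called members described are given with their fold changes. Results were recomputed with other scalings, pseudocounts and filters, a stricter threshold, exact rank-sum tests, the replicate number as a block, clock genes as a covariate, and without each mouse. limma voom on the recovered reads and a count over members with coding windows of their own were added after the data were seen.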

Additional observations from a re-analysis of the deposited data

Results flagged for a closer look

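In 78 groups of values of the named ribosomal protein genes, 4 single mice stood far from the rest of their group, where chance gives about 1 in 20. AIMD replicate 4 had 0.351 FPKM of Rpl10, the other AIMD mice 1.45 to 2.07. AIMD replicate 4 also had 1.30 FPKM of Rpl39l, above the other AIMD mice. AIMD replicate 7 had 0.328 FPKM of Rps6, and AIMD replicate 3 had 1.31 FPKM of Rps27, each the highest of its group. All 4 genes are low, and the median AIMD mouse had 48 reads of Rpl10, 2 of Rpl39l, 3 of Rps6 and 11 of Rps27.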

How the results depend on the processing

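Of the 81 genes, 9 were called higher and 18 lower, where 19.4% and 16.7% of all genes were. Scaled to the same summed FPKM, 15 were higher and 5 lower and their median log2 fold change turned from −0.24 to 0.0922, below the 0.30 of all genes. Without the level filter 3 were higher, where 9.90% of all genes were. With the exact rank-sum test 5 were higher and 10 lower (17.6% and 14.9% of all genes), and at an adjusted p of 0.01 there were 1 higher and 6 lower (11.5% and 9.18% of all genes). The 53 members with coding windows of their own gave 9 higher (17.0%) and 8 lower (15.1%). At 0.01 the list of translation factors had 8 genes called and that of ribosome biogenesis 13, against 13 and 25. With 1 mouse left out, 2 to 9 were higher (2 without AIMD replicate 2, 4 without AIMD replicate 5 or vehicle replicate 6, 5 without AIMD replicate 1 or 6 or vehicle replicate 5 or 7) and 12 to 28 lower (28 without vehicle replicate 8), and the median was −0.34 to −0.15. Over all genes, the fits without 1 mouse called 16.1% to 20.1% higher and 13.4% to 18.7% lower. limma voom on the recovered reads called 6 higher and 20 lower (18.7% and 18.5% of all genes). Why the counts differ between these fits was not tested.

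Rpl7, Rpl4, Rplp1, Rpsa, Rpl38, Rps21 and Rpl36al kept their call at 0.05 under every alternative and with every mouse left out. At the stricter 0.01, Rpl4 and Rpl36al were not called (limma adjusted p = 0.0169 and 0.0128). Rpl38 could not be tested at FPKM of 1 or more in all 15 mice. The calls of Rpl36, Rpl7a and Rplp2 were each lost with 10 or 11 of the 15 mice left out in turn, and that of Rps4x with 8.

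No label says whether mice with the same replicate number are a pair. The numbers follow the clock-gene axis within each group. AIMD replicates 1 to 3 and vehicle replicates 1 to 4 were on its negative side. AIMD replicates 4 to 7 and vehicle replicates 5 to 8 were on its positive side. What the replicate number stands for was not tested. With the replicate number as a block, which drops vehicle replicate 8, 9 genes were higher and 30 lower (19.9% and 18.9% of all genes). The deviations of mice with the same number correlated between −0.35 and 0.43. The level of a gene with few reads or with shared coding windows is uncertain.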
